A study of Mus musculus with 48 samples.

Results

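Among the 19601 protein-coding genes of the substantia nigra (SN) with deposited batch-corrected values, 50 carry a proteasome gene name, that is, Psm followed by a letter from a to g and a digit. All 50 were kept, and they were sorted by known role into 7 alpha and 7 beta subunits of the constitutive 20S core, 3 immunoproteasome subunits and 2 tissue-specific core subunits, 6 ATPases and 11 non-ATPases of the 19S regulatory particle, 6 activators or inhibitors and 7 assembly chaperones. The remaining gene, *Psmc3ip*, is a meiotic recombination factor that shares only its name with the family. Male C57BL/6J mice received one injection into the right striatum, either sonicated preformed fibrils (PFFs) of mouse α-synuclein or, as the control, α-synuclein monomer, and then breathed 21% O2 (normoxia) or 11% O2 (hypoxia). All mice were thus injected with some form of the same protein, and none was left uninjected. They were 121 days old at injection and were harvested 90–98 days later. The paper starts hypoxia 1 h after injection in its prevention experiment and after 6 weeks of 21% O2 in its reversal experiment. The series' own description gives the second timing for these mice, and the mouse labels give none. In the paper, however, the reversal experiment has no monomer group at 11% O2, and these mice include such a group. The sources thus differ, and the length of hypoxia is uncertain. Of 12 mice in each group, the values describe the 42 that the authors kept: 11 monomer mice and 12 PFF mice at 21% O2, and 9 monomer mice and 10 PFF mice at 11% O2.

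The 26S proteasome degrades proteins that carry ubiquitin chains. Its 20S core is a barrel of stacked alpha and beta rings with the proteolytic sites inside, and its 19S cap recognizes, unfolds and feeds in the substrate. Interferons induce an alternative set of catalytic subunits, encoded by *Psmb8*, *Psmb9* and *Psmb10*, which replace the products of *Psmb5*, *Psmb6* and *Psmb7* in new cores and favor peptides suited to presentation on MHC class I. In Parkinson's disease and in fibril models, the proteasome is studied because α-synuclein can be one of its substrates and aggregates of α-synuclein can impair it.

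Read counts before correction ranged from 12902996 to 17120921 per mouse among the 42 mice. The labels number 3 batches, each with its own birth and injection date. Each batch was harvested on a single date, except that 1 monomer mouse of batch 3 at 11% O2 was harvested later, 98 days after injection. Batch 1 held all 4 groups, batch 2 held no monomer mouse at 11% O2 and batch 3 held no monomer mouse at 21% O2, so these 2 monomer groups met only in batch 1. The summed level of 6 dopamine neuron markers, *Th* among them, ranged from 539 to 4312 TPM (transcript abundance) across the 42 mice. It varied widely within each group, and none of these genes was at 0 in any group. A tissue sample holds many cell types, and fewer cells of a type cannot be told apart from less RNA per cell.

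The levels of the proteasome genes differed far more between genes than between groups. TPM scales reads to gene length and library total, so levels of different genes depend on the length used as well as on the reads. The highest were *Psmc5*, an ATPase of the 19S cap, at a mean of 805 TPM, *Psmc1*, another ATPase, at 517 TPM, and *Psma6*, an alpha ring subunit, at 318 TPM. By TPM, the 7 alpha subunits spanned 99.9–318 (a 3.18-fold range) and the 7 beta subunits 89.2–270 (3.02-fold). The ends of the alpha range, *Psma3* and *Psma6*, had nearly equal mean counts, 1487 and 1500. Their annotated exons cover 3894 and 1234 bases, so this range reflects the length used and not the reads. The ranges were wider among the 6 ATPases (87.1–805 TPM) and the 11 non-ATPases (39.2–250 TPM). Assembly chaperones were lower, with a median of 36.0 TPM. The testis subunit *Psma8* was at 0.838 TPM and the thymus subunit *Psmb11* at 0.0795 TPM, with no count in 10 of 42 mice.

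**Figure D1:**
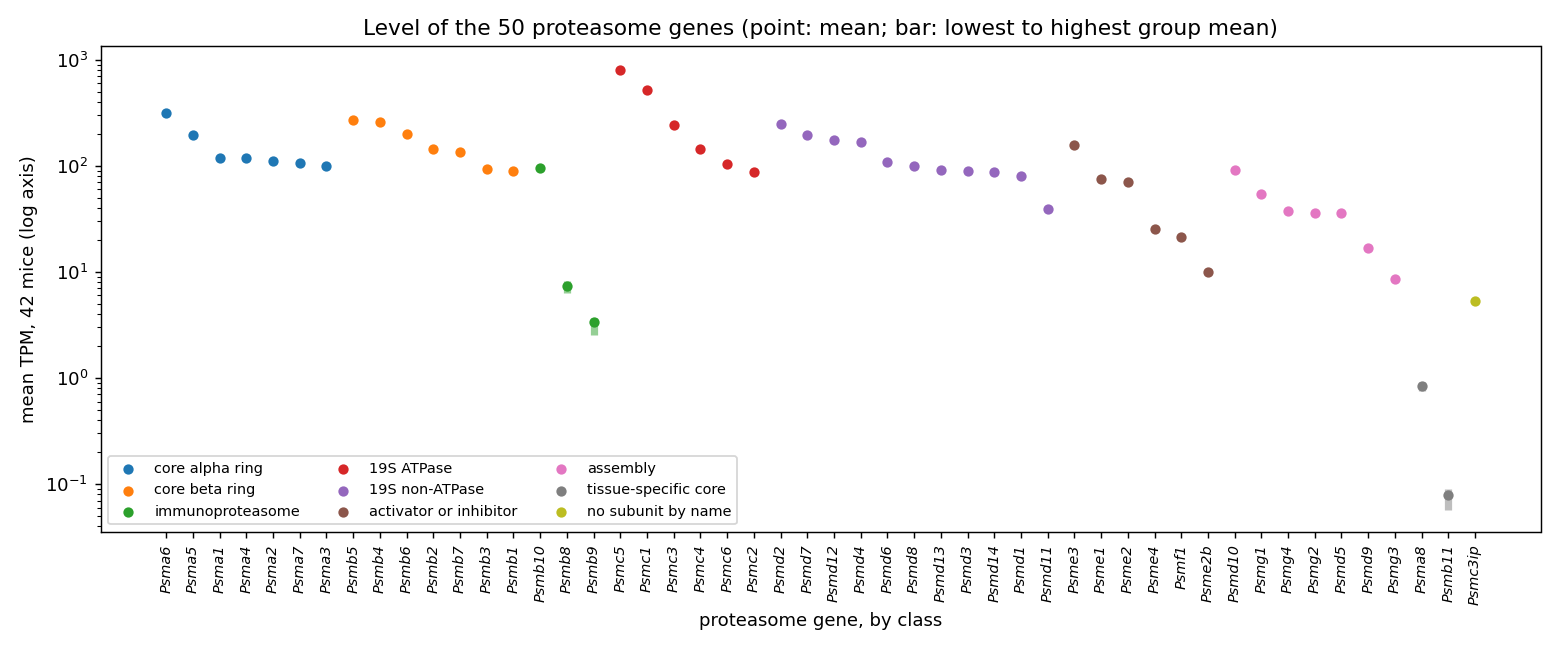
Mean level of each of the 50 proteasome genes over 42 mice, in TPM on a log axis, ordered by class; points are means and bars run from the lowest to the highest group mean. Bars are hidden behind the points for nearly all genes, while points span from 0.0795 TPM for *Psmb11* to 805 TPM for *Psmc5*.

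Of the 3 interferon-induced catalytic subunits, *Psmb10* stood apart from the other 2. Its mean was 94.8 TPM, against 136 TPM for its constitutive counterpart *Psmb7*. *Psmb8* was at 7.36 TPM, against 270 TPM for *Psmb5*, and *Psmb9* was at 3.35 TPM, against 198 TPM for *Psmb6*. By TPM in monomer mice at 21% O2, the immunoproteasome partner made up 39.8% ± 1.91 (SD, n = 11) of the *Psmb10* and *Psmb7* pair. It made up 2.33% ± 0.448 of the *Psmb8* and *Psmb5* pair and 1.27% ± 0.308 of the *Psmb9* and *Psmb6* pair. These shares depend on exon length: 1705 against 3421 bases, 3381 against 899 and 3660 against 1872, in the same order. Mean counts over the 42 mice were 618 against 1778, 95.2 against 927 and 46.8 against 1417. The read counts behind the low genes were modest: a mean of 95.2 per mouse for *Psmb8* and 46.8 for *Psmb9*, with 19 in the lowest mouse. Within groups the coefficient of variation averaged 19.6% for *Psmb8* and 23.3% for *Psmb9*, but 6.20% for *Psmb10* and between 4.98% and 7.73% for the 31 constitutive core and cap subunits.

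**Figure D2:**
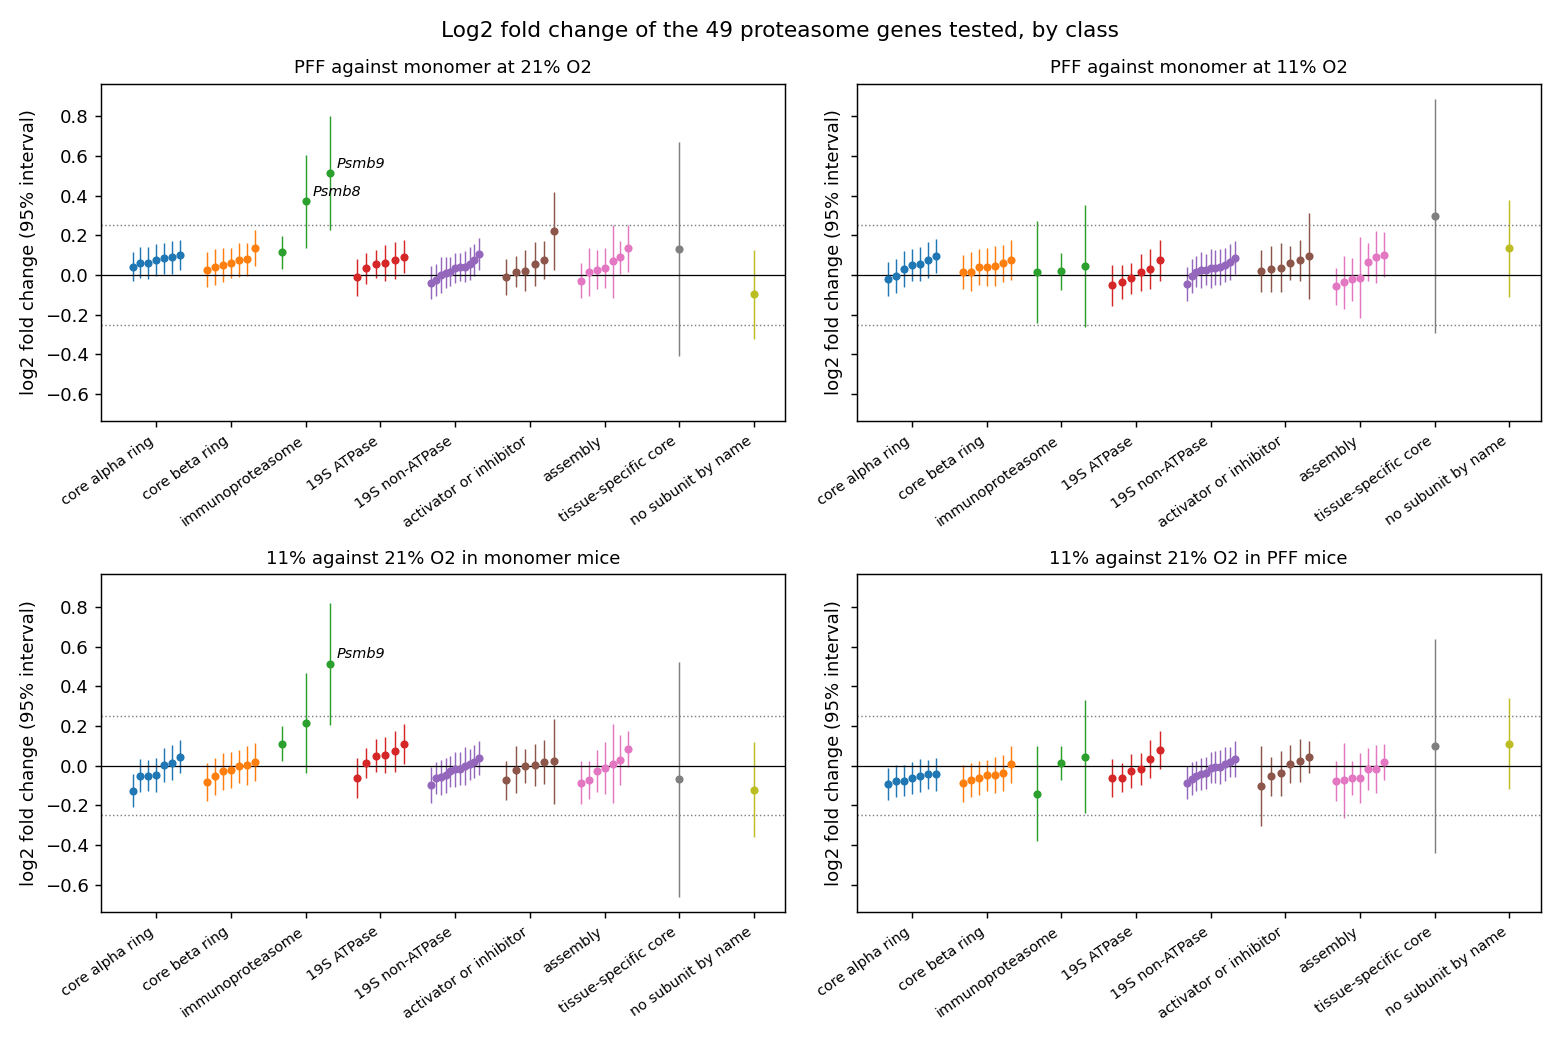
Log2 fold changes of the 49 proteasome genes tested, by class, in the 4 comparisons between groups; points are estimates, bars 95% intervals and dotted lines the fold limit of 0.25, with called genes labelled. Nearly all points lie close to 0, and the labelled points are *Psmb8* and *Psmb9* at 21% O2 and *Psmb9* in monomer mice.

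The first question was whether PFF injection altered the constitutive proteasome. None of the 31 subunits of the constitutive core and 19S cap was called in any comparison, where a call needs an adjusted p under 0.05 by edgeR's quasi-likelihood test across all 14839 genes tested together with a log2 change of more than 0.25 up or down. On the batch-corrected counts, the precision was enough to bound the effect. All 31 had a 95% interval inside ±0.25 in each of the 4 comparisons between groups and for the interaction. Correction used the groups as covariates, which can make such intervals look more precise. Over all genes tested, 62.1% had such an interval for PFF against monomer at 21% O2, and 41.9% for the interaction. With PFF at 21% O2, log2 fold changes of the 14 core subunits ran from 0.03 to 0.14, all above 0, with a median of 0.07. Those of the 17 cap subunits ran from −0.04 to 0.10, with 14 above 0 and a median of 0.04. Over all genes the median was 0.00 and 50.4% were above 0. Genes measured in the same mouse share its library, so the one-sided counts of the core are a description. In batch 1 all 14 core subunits were above 0, with a median of 0.09. In batch 2, 11 of 14 were, with a median of 0.04. Of the 17 cap subunits, 13 were above 0 in batch 1 (median 0.06) and 8 in batch 2 (median −0.01).

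Of the core subunits, *Psmb3*, a non-catalytic beta subunit, had the smallest p with PFF at 21% O2. Its level ranged from 81.5 to 101 TPM (median 91.1) in monomer mice and from 89.5 to 109 TPM (median 98.96) in PFF mice. Of the 12 PFF mice, 10 lay above the monomer median and 6 above the highest monomer mouse. The log2 fold change was 0.14 ± 0.05 (SE), with an adjusted p of 0.056. *Psma7* had the smallest p of the alpha ring, at 0.10 ± 0.04 (adjusted p = 0.101). On counts before correction, *Psma7* was at 0.04 ± 0.06 in batch 1 (adjusted p = 0.773). In batch 2 it was at 0.18 ± 0.04 (adjusted p = 0.0206), short of the fold limit. In the cap, *Psmc1* was at 0.09 ± 0.04 (adjusted p = 0.177) and *Psmd13*, a lid subunit, at 0.10 ± 0.04 (adjusted p = 0.105). The 3 constitutive catalytic genes lay within the same narrow band, at 0.06 ± 0.04 for *Psmb5*, 0.05 ± 0.04 for *Psmb6* and 0.08 ± 0.04 for *Psmb7*, with adjusted p-values from 0.278 to 0.527.

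Under hypoxia in monomer mice, 5 of the 14 core subunits and 9 of the 17 cap subunits were above 0, with medians of −0.02 and 0.00. *Psma3*, an alpha subunit, passed the adjusted p but not the fold limit. Its TPM ranged from 95.9 to 106 (median 101) at 21% O2 and from 83.6 to 101 (median 93.3) at 11% O2. All 9 hypoxic mice lay below the normoxic median and 6 of 9 lay below the lowest normoxic mouse. Its log2 fold change was −0.13 ± 0.04 (adjusted p = 0.0387), and 13.2% of all genes passed the adjusted p alone in this comparison. *Psmc5*, by contrast, was at 0.11 ± 0.05 (adjusted p = 0.135), and *Psmd11*, a lid subunit, at −0.10 ± 0.04 (adjusted p = 0.148). In PFF mice, 13 of the 14 core subunits were below 0 under hypoxia, with a median of −0.05, while 46.8% of all genes were above 0. *Psma3* was again the core subunit with the smallest p (−0.09 ± 0.04, adjusted p = 0.399). The same core direction was seen in batches 1 and 3, with 1 and 0 of 14 above 0, but not in batch 2, with 7 of 14.

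The calls among the proteasome genes fell on 2 of the 3 immunoproteasome genes, *Psmb8* and *Psmb9*. *Psmb8* and *Psmb9* lie in the MHC on chromosome 17, and *Psmb9* is transcribed away from *Tap1*, which encodes one chain of the transporter that carries proteasome products into the endoplasmic reticulum. The windows from 250 bases before to 50 bases after the RefSeq start (GRCm38.p6) are shown for *Psmb8* (chr17:34197945-34198244, plus strand) and *Psmb9* (chr17:34187281-34187580, minus strand), because these are the 2 proteasome genes that were called. The windows of their constitutive counterparts *Psmb5* (chr14:54617946-54618245, minus strand) and *Psmb6* (chr11:70525107-70525406, plus strand) are shown for contrast. Capitals mark matches on either strand to 5 short motifs: an antioxidant response element (TGACNNNGC), a heat shock element pair (GAANNTTC), a CCAAT box (CCAAT), an interferon-stimulated response element (GAAANNGAA) and a gamma-activated site (TTCNNNGAA).
Psmb8: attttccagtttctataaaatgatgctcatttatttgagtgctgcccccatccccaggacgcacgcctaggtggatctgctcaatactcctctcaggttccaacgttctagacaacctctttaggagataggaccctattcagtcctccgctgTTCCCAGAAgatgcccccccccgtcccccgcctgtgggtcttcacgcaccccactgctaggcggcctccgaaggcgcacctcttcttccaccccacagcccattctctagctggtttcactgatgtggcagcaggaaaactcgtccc
Psmb9: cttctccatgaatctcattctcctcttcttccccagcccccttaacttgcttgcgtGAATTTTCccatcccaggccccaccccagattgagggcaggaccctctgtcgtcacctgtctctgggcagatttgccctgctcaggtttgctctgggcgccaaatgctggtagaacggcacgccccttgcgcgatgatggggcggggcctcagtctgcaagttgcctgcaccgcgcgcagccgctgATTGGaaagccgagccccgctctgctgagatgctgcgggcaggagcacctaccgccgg
Psmb5: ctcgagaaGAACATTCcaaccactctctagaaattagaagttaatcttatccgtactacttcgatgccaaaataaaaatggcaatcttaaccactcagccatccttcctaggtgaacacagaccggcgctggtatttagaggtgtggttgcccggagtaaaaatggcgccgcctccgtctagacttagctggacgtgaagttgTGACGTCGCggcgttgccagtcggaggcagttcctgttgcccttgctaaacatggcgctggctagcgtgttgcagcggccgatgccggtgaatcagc
Psmb6: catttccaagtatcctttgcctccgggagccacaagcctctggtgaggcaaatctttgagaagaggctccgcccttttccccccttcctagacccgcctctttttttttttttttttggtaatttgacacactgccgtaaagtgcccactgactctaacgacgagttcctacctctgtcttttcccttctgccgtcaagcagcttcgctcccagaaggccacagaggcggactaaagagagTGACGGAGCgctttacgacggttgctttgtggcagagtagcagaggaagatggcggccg

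The *Psmb8* window held a gamma-activated site match (TTCCCAGAA, starting 97 bases before the gene start), and the *Psmb9* window a heat shock pair (GAATTTTC, 194 bases before) and a CCAAT box in reverse (ATTGG, 8 bases before). The *Psmb9* window shared 275 of its 300 bases with that of *Tap1* on the opposite strand. *Psmb5* and *Psmb6* each held an antioxidant response element match (TGACGTCGC and TGACGGAGC), and *Psmb5* a heat shock pair (GAACATTC). Such letters are common. Of 32851 windows in the table, 12.4% held the antioxidant element, 7.86% the heat shock pair, 37.4% the CCAAT box, 8.56% the interferon-stimulated element and 8.3% the gamma-activated site. Windows were found for 42 of the 50 proteasome genes, and 6, 3, 15, 7 and 3 of these held the 5 motifs in that order. These are 14.3%, 7.14%, 35.7%, 16.7% and 7.14% of the 42. Counted by gene rather than by window, the shares over 27025 genes were 14.0%, 9.04%, 41.1%, 9.76% and 9.55%. The 7 with the interferon-stimulated element were *Psmb3*, *Psmb4*, *Psmc2*, *Psmd4*, *Psmd9*, *Psme1* and *Psmg4*, none of them an immunoproteasome subunit. A match is a run of letters and not evidence of binding.

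With PFF at 21% O2, *Psmb9* and *Psmb8* rose. They were the 2 proteasome genes called among 49 tested, and 3.7% of all genes were called in this comparison (2.29% higher and 1.41% lower). The same 2 passed by the adjusted p alone, beside 7.59% of all genes, and 12 of 49 had an unadjusted p under 0.05, beside 22.4% of all genes. *Psmb9* ranged from 1.59 to 3.53 TPM (median 2.43) in the 11 monomer mice and from 2.42 to 4.73 TPM (median 3.79) in the 12 PFF mice. Of the PFF mice, 11 lay above the monomer median and 7 above the highest monomer mouse. The log2 fold change was 0.51 ± 0.14 (95% interval 0.22 to 0.80, adjusted p = 0.021). *Psmb8* ranged from 4.71 to 8.61 TPM (median 5.89) in monomer mice and from 5.42 to 10.5 TPM (median 8.30) in PFF mice. Here 10 PFF mice lay above the monomer median and 4 above the highest monomer mouse. The log2 fold change was 0.37 ± 0.12 (0.14 to 0.61, adjusted p = 0.0404). The third gene, *Psmb10*, ranged from 75.3 to 96.4 TPM in monomer mice and from 85.0 to 108 TPM in PFF mice, and its log2 fold change of 0.12 ± 0.04 was not called (adjusted p = 0.0818). In these PFF mice, *Psmb8* made up 2.88% ± 0.578 (SD, n = 12) of its pair with *Psmb5* by TPM, and *Psmb9* 1.75% ± 0.444 of its pair with *Psmb6*. These shares carry the same dependence on exon length.

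**Figure D3:**
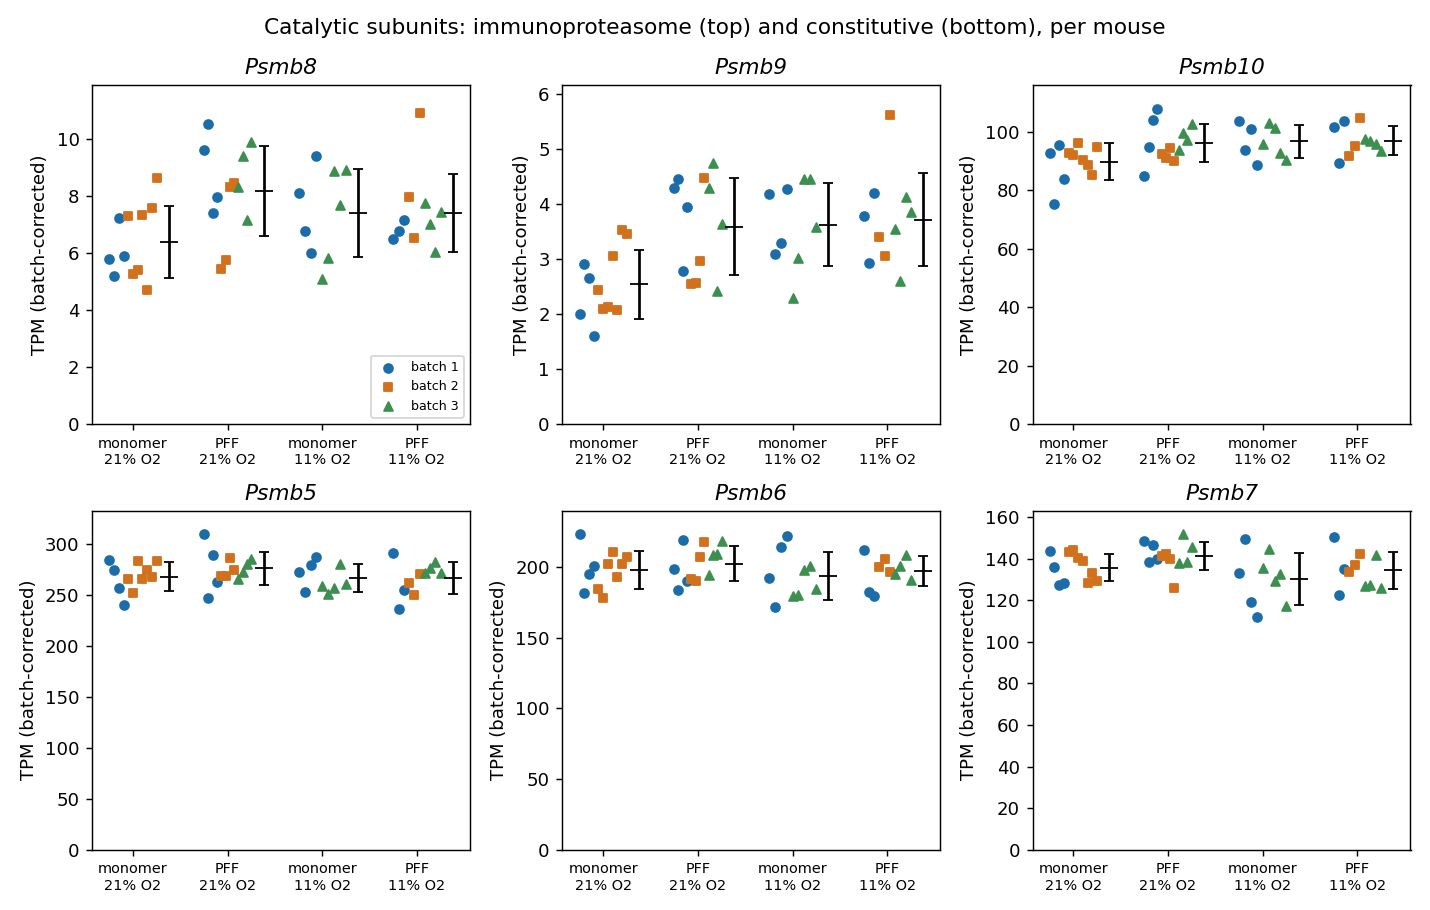
Batch-corrected TPM of the immunoproteasome genes (top) and their constitutive counterparts (bottom) in each of the 42 mice, by group; symbols give the batch, and the bars beside them the mean and SD. *Psmb9* sits between 1.59 and 3.53 TPM in monomer mice at 21% O2 and reaches higher in the other groups, while the lower panels are level.

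The groups did not separate fully for any proteasome gene: 0 of 49 tested had non-overlapping groups in any of the 4 comparisons, and between 0.0% and 0.391% of all genes did. The calls also rested on a small margin. Without 1 mouse at a time, *Psmb9* stayed called in 42 of 42 refits (adjusted p from 0.0124 to 0.0498), whereas *Psmb8* stayed called in 29 of 42 (0.0184 to 0.0891). *Psmb8* lost its call without any 1 of 13 mice: PFF replicates 1, 2, 4, 7, 8, 10 and 12 or monomer replicates 1, 2, 4, 6, 7 and 9, all at 21% O2. On uncorrected counts of all 48 mice with a batch term, the values were 0.53 for *Psmb9* (adjusted p = 0.0592) and 0.39 for *Psmb8* (adjusted p = 0.0752), neither of them called.

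Hypoxia in monomer mice gave the same *Psmb9* difference. Its TPM ranged from 2.28 to 4.45 (median 3.58) in the 9 mice at 11% O2. Of these, 8 were above the normoxic median and 5 above the highest normoxic mouse. The log2 fold change was 0.51 ± 0.15 (0.21 to 0.82, adjusted p = 0.0195), and *Psmb9* was the single proteasome gene called, beside 7.23% of all genes (4.68% higher and 2.55% lower). On uncorrected counts of the 42 mice with a batch term it was 0.55 and not called (adjusted p = 0.0557). An unadjusted p under 0.05 was found for 5 of the 49 proteasome genes and 27.7% of all genes. *Psmb8* ranged from 5.10 to 9.39 TPM (median 7.70), at a log2 fold change of 0.22 ± 0.13 (adjusted p = 0.264), and *Psmb10* from 88.8 to 104 TPM, at 0.11 ± 0.04 (adjusted p = 0.0887). This comparison and that of PFF at 21% O2 are both set against the same 11 monomer mice at 21% O2, so their similar values are not independent of each other.

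Against hypoxic monomer mice, the hypoxic PFF mice showed no call among the proteasome genes or among any of the 14839 genes (0.0% by edgeR, with 3.92% of genes at an unadjusted p under 0.05). DESeq2 called no proteasome gene here either. By edgeR, 2 of 49 had an unadjusted p under 0.05, *Psma3* and *Psmd8*, a lid subunit. *Psmb9* ranged from 2.60 to 5.61 TPM (median 3.66) in PFF mice at 11% O2. Its log2 fold change was 0.05 ± 0.15, with an interval of −0.26 to 0.35, so an effect of the size estimated at 21% O2 lay outside it. For *Psmb8* the value was 0.01 ± 0.13 (−0.24 to 0.27). Between the PFF groups, *Psmb9* differed by 0.05 ± 0.14 (−0.24 to 0.33) and *Psmb8* by −0.14 ± 0.12 (−0.38 to 0.10) under hypoxia, and no proteasome gene was called, beside 0.58% of all genes (0.438% higher and 0.142% lower). By the adjusted p alone 0 proteasome genes and 0.815% of all genes passed, and at an unadjusted p under 0.05 these were 2 of 49 and 10.7%.

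A call at 21% O2 and none at 11% O2 does not show that the effects of PFF differ, and the interaction term tests this. It was −0.47 ± 0.21 for *Psmb9* (−0.89 to −0.05, unadjusted p = 0.030, adjusted p = 0.257) and −0.36 ± 0.17 for *Psmb8* (−0.70 to −0.01, unadjusted p = 0.0442, adjusted p = 0.307). Neither passed, and no proteasome gene was called for the interaction, beside 2.14% of all genes (1.1% higher, 1.04% lower, and 2.32% by the adjusted p alone). An unadjusted p under 0.05 was found for 4 of 49 proteasome genes and for 15.4% of all genes.

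Within batches the size of the immunoproteasome differences varied. For PFF at 21% O2, *Psmb9* was higher by 0.83 ± 0.25 in batch 1 (4 mice against 4) and by 0.26 ± 0.21 in batch 2 (4 against 7), on counts before correction. *Psmb8* was higher by 0.60 ± 0.17 in batch 1 but by 0.11 ± 0.18 in batch 2. Neither gene was called within a batch. Before correction, the 4 monomer mice of batch 1 at 21% O2 had a median *Psmb8* of 4.43 TPM and the 7 of batch 2 a median of 6.89 TPM, so this group was not uniform across batches. Hypoxia in monomer mice could be compared in batch 1 only, where *Psmb9* was higher by 0.74 ± 0.25 (adjusted p = 0.119). For hypoxia in PFF mice the sign of *Psmb8* turned, at −0.41 ± 0.18, 0.28 ± 0.22 and −0.31 ± 0.17 in batches 1, 2 and 3.

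**Figure D4:**
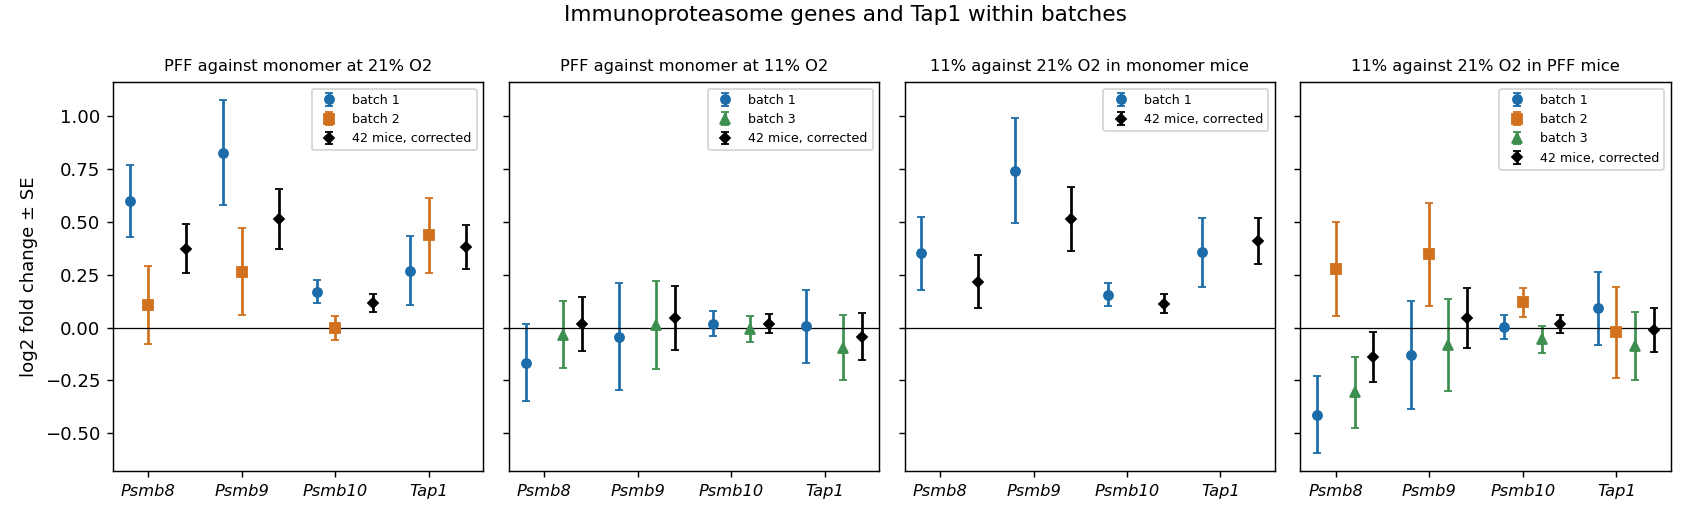
Log2 fold changes (± SE) of the immunoproteasome genes and *Tap1* within each batch, on counts before correction, beside the estimate over the 42 batch-corrected mice. For PFF at 21% O2 the *Psmb8* and *Psmb9* values of batch 1 lie above those of batch 2, while the *Tap1* values overlap.

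Genes tied to the immunoproteasome were read from a list of 9 on the interferon and MHC class I side. *Tap1* rose with PFF at 21% O2, from 2.66–6.17 TPM (median 3.90) in monomer mice to 4.37–6.69 TPM (median 5.15) in PFF mice. All 12 PFF mice were above the monomer median. This was a log2 fold change of 0.38 ± 0.10 (adjusted p = 0.0188). In monomer mice under hypoxia *Tap1* also rose, by 0.41 ± 0.11 (adjusted p = 0.0102). It was the only one of the 9 called in either comparison, although 9 of 9 and 8 of 9 were above 0, with medians of 0.20 and 0.14. The *Tap1* call for PFF was lost on uncorrected counts of all 48 mice with a batch term (adjusted p = 0.0685), in batch 1 alone (adjusted p = 0.462) and in batch 2 alone (adjusted p = 0.168), and that for hypoxia in batch 1 alone (adjusted p = 0.235). None of the 9 was called for PFF at 11% O2 or for hypoxia in PFF mice, and the medians there were 0.01 and −0.01.

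Cell type markers and heat shock genes were read beside these differences. All 6 microglial markers were above 0 with PFF at 21% O2 (median 0.08) and under hypoxia in monomer mice (median 0.16), but none was called. Their summed level was 294–561 TPM in monomer mice and 308–559 TPM in PFF mice at 21% O2, and 369–583 TPM in monomer mice at 11% O2. Of the T cell markers, all 3 were too low to be tested, at a sum of 0.136–0.588 TPM in monomer mice and 0.284–1.00 TPM in PFF mice at 21% O2. The 5 endothelial markers were all called higher under hypoxia in monomer mice (median 0.52), beside 4.68% of all genes. Under hypoxia in PFF mice 2 of the 5 were called higher, beside 0.438% of all genes. None was called with PFF at 21% O2. Of 5 oligodendrocyte markers, 2 were called higher under hypoxia in monomer mice, and 1 was called lower for the interaction, beside 1.04% of all genes. No dopamine neuron, other neuron or astrocyte marker was called in any comparison. Of 8 heat shock genes, 6 were called lower with PFF at 21% O2 (median −0.59), beside 1.41% of all genes. Under hypoxia in monomer mice 5 were called lower (median −0.76), beside 2.55% of all genes. *Psmb9* was called in the same comparisons. For the interaction, where *Psmb9* was not called, 4 of the 8 were called higher, beside 1.1% of all genes. Whether cell content or the heat shock level has a part in the *Psmb9* and *Psmb8* values was not tested.

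Activators cap the core in place of the 19S particle and let in short or unfolded chains. None of the 6 activators or inhibitors was called in any comparison. *Psme1* and *Psme2*, which encode the interferon-inducible PA28 alpha and beta chains, were at means of 74.6 and 69.9 TPM. With PFF at 21% O2 they differed by 0.06 ± 0.06 (−0.06 to 0.17) and 0.08 ± 0.05 (−0.02 to 0.17). For *Psme1*, monomer mice spanned 61.3–93.8 TPM (median 71.0) and PFF mice 61.1–85.1 TPM (median 76.4). Of the 12 PFF mice, 11 were above the monomer median and 0 above the highest monomer mouse. *Psme3*, which encodes the nuclear PA28 gamma, was the highest activator at 157 TPM and differed by 0.02 ± 0.04, and *Psme4*, which encodes PA200, by −0.01 ± 0.05. The intronless copy *Psme2b* was at 9.90 TPM and differed by 0.22 ± 0.10 (adjusted p = 0.185). It can share reads with *Psme2*, so both are uncertain. Under hypoxia in monomer mice the class ran from −0.07 for *Psme4* to 0.02 for *Psme2b*.

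Assembly chaperones hold partly built rings and release before the finished particle. Of the 7, none was called. The smallest p with PFF at 21% O2 belonged to *Psmg3*, a chaperone of the alpha ring, which was at 7.33–8.995 TPM in monomer mice and 7.38–9.79 TPM in PFF mice, a log2 fold change of 0.14 ± 0.06 (adjusted p = 0.173). With PFF at 11% O2, *Psmd10* (gankyrin) had the smallest p, at 0.10 ± 0.06 (adjusted p = 1.0). *Psmd9*, a chaperone of the ATPase ring, was at 0.09 ± 0.04 with PFF at 21% O2 and 0.08 ± 0.04 under hypoxia in monomer mice, and its interaction was −0.15 ± 0.06 (adjusted p = 0.232). Its exons overlap another gene over 25.5% of their length, and reads were counted without strand. *Psmg1* was lowest in p under hypoxia in PFF mice, at −0.08 ± 0.05. The testis subunit *Psma8* was too low for a useful bound (0.13 ± 0.27 with PFF at 21% O2), and *Psmb11* did not pass the filter on low counts.

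Of 32 partners and regulators of the proteasome listed beside the family, such as ubiquitin-activating enzymes, shuttle factors and the transcription factors that drive subunit genes, 31 could be tested. With PFF at 21% O2 none was called, beside 3.7% of all genes, and 3 passed the adjusted p alone, beside 7.59%. Of the 31, 8 were above 0 (median −0.04), beside 50.4% of all genes and 43 of the 49 proteasome genes. Under hypoxia in monomer mice, 2 of the 31 were called, beside 7.23% of all genes, and 7 passed the adjusted p alone, beside 13.2%. The 2 were *Akirin2* and *Uba6*, both lower. *Akirin2*, which brings proteasomes into the nucleus, ranged from 61.9 to 85.0 TPM (median 74.8) at 21% O2 and from 54.7 to 68.0 TPM (median 61.8) at 11% O2. All 9 hypoxic mice were below the normoxic median and 5 below the lowest normoxic mouse. The log2 fold change was −0.28 ± 0.05 (adjusted p = 0.000245). In batch 1 alone it was −0.26 and not called (adjusted p = 0.0742). *Uba6*, a second ubiquitin-activating enzyme, fell from 16.8–24.5 TPM to 13.6–22.1 TPM, at a log2 fold change of −0.26 ± 0.08 (adjusted p = 0.017). Its call was lost without replicate 1, 3, 4 or 11 of the monomer mice at 11% O2 or replicate 4, 5 or 11 of those at 21% O2.

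*Akirin2* was also called for the interaction (0.34 ± 0.07, adjusted p = 0.00591), but not in batch 1 alone (0.32, adjusted p = 0.521). *Akirin2* had medians of 74.8, 67.8, 61.8 and 69.8 TPM in monomer mice at 21% O2, PFF mice at 21% O2, monomer mice at 11% O2 and PFF mice at 11% O2. PFF mice were thus lower than monomer mice at 21% O2 (−0.16 ± 0.05, adjusted p = 0.0334, short of the fold limit), while 7 of 10 PFF mice lay above the highest monomer mouse at 11% O2. *Nfe2l1*, the factor that raises subunit transcription when proteasomes are inhibited, was at 331 ± 12.4, 310 ± 18.7, 327 ± 29.2 and 321 ± 22.5 TPM (SD) in the same order. It was not called in any comparison.

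The 42 mice also allowed the co-variation of the genes to be read apart from the group differences, as deviations of log2 CPM (counts scaled to the library total) from the mean of each group and batch. *Psmb9* and *Psmb8* varied together, with Pearson's r = 0.72 and Spearman's rho = 0.71 (permutation adjusted p = 6e-05 for both, from the smallest p that 100000 permutations within group and batch can give, over 6 relations). Without the 2 mice farthest from the median, r was 0.68. Within batches 1, 2 and 3, r was 0.53, 0.89 and 0.63. *Tap1* varied with *Psmb9* (r = 0.60, rho = 0.58, adjusted p = 0.00074 and 0.0016), at 0.27, 0.77 and 0.61 within batches, and with *Psmb8* (r = 0.64, rho = 0.65, adjusted p = 0.00074 and 0.00066), at 0.49, 0.65 and 0.73. Without the 2 farthest mice these were 0.56 and 0.60. The exons of *Psmb9* overlap those of *Tap1* over 5.79% of their length, so a small part of their reads could be shared or lost together. Those of *Psmb8* overlap another gene, *Gm20496*, over 14.7% of their length, which can affect its counts.

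No relation was detected between *Psmb10* and *Psmb9* (r = −0.02, rho = 0.01, permutation adjusted p = 0.924 and 0.973). The same held for *Psmb9* and its counterpart *Psmb6* (r = 0.17, rho = 0.20, permutation adjusted p = 0.392 and 0.339) and for *Psmb8* and *Psmb5* (r = 0.14, rho = 0.18, permutation adjusted p = 0.392 and 0.343). Pairs of constitutive core genes tended to vary together, and pairs of 19S genes less so, described without a test. The median r over 91 pairs of core genes was 0.45, over 136 pairs of 19S genes 0.21, over 238 pairs of a core and a 19S gene 0.29, and over all pairs of the 14839 genes tested −0.001. Over the 55 pairs of non-ATPases alone the median r was 0.07. Individual pairs ran from −0.40 to 0.82 within the core and from −0.62 to 0.86 within the 19S. All pairs share library and depth.

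**Figure D5:**
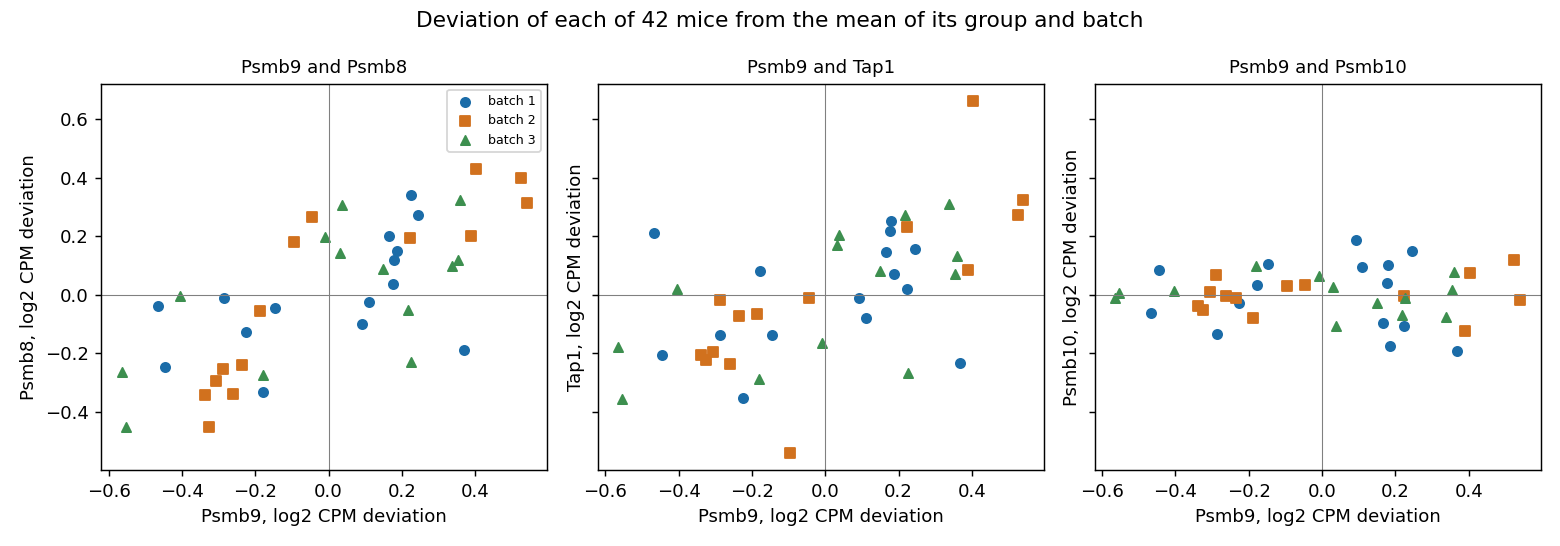
Deviation of each of the 42 mice from the mean of its group and batch, in log2 CPM, for *Psmb9* on the horizontal axis and *Psmb8*, *Tap1* and *Psmb10* on the vertical axes; symbols give the batch. *Psmb8* (r = 0.72) and *Tap1* (r = 0.60) rise along with *Psmb9*, and *Psmb10* (r = −0.02) lies flat.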

How the data were processed

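RNA of the dissected SN was enriched for poly(A) and sequenced in paired reads. The authors removed ribosomal DNA reads, aligned the rest to mm10 with STAR 2.7.5a, removed duplicates with Picard 2.21.9 and assigned reads to GENCODE genes with featureCounts 2.0.1, without strand and with the primary alignment of multimapping reads. Removal of duplicates can lower the counts of abundant genes. The authors deposited these counts for 48 mice, and the batch-corrected counts (ComBat-seq) of the 42 mice that they kept after principal components analysis. Both kinds of count were also deposited as TPM. Correction used injection and O2 as covariates, which can make groups spread over unequal batches look more precise.

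Corrected counts were fitted here with edgeR 4.0.16 (TMM, filterByExpr, quasi-likelihood test, 4 groups in a single fit), and p-values were adjusted by Benjamini–Hochberg over all 14839 genes tested. Standard errors are the log2 fold change over the square root of F. DESeq2 1.42.0, limma 3.58.1 on log2(TPM + 1), other filters, uncorrected counts with a batch covariate, single batches and refits without 1 mouse were alternatives. The fit was tested on simulated data. Positions in the text are those of RefSeq on GRCm38.p6, and exon overlaps come from GENCODE vM21. Named are the proteasome genes called, the catalytic and immunoproteasome subunits, *Psme1* to *Psme4*, the gene with the smallest p of each class in each comparison, and called partners or interferon-side genes with *Nfe2l1*. A further result that this rule would name is not reported here. The members and lists were chosen with earlier results of these data known. Titles name separate mice of each group.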

Additional observations from a re-analysis of the deposited data

Results flagged for a closer look

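Among the groups of 9 and 10 mice, 3 values of named proteasome genes stood far from the others of their group. In PFF mice at 11% O2, replicate 8 had the highest *Psmb8* (10.9 TPM, next 7.98 TPM) and the highest *Psmb9* (5.61 TPM, next 4.19 TPM). In the same group, replicate 1 had the lowest *Psme3* (137 TPM, next 156 TPM). Over the 54 gene and group pairs examined, chance alone gives such a value in about 5% of them.

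The effect of PFF differed between 21% and 11% O2 for *Akirin2*, a partner of the proteasome, by edgeR's test of the interaction. The difference was 0.34 ± 0.07 on the log2 scale (adjusted p = 0.00591). Without 1 mouse at a time, *Akirin2* stayed called in 42 of 42 refits. In batch 1 alone, the only batch with all 4 groups, the difference was 0.32 and lost its call (adjusted p = 0.521).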

How the results depend on the processing

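With PFF at 21% O2, where 2 proteasome genes were called, 1 was called with no filter on low counts, with uncorrected counts of the 42 mice and a batch covariate, with a replicate block and with only the groups compared. None (0) was called with uncorrected counts of all 48 mice and a batch covariate, in batch 1 alone or in batch 2 alone. Under hypoxia in monomer mice, where 1 was called, 2 passed by the adjusted p alone, and 0 were called with the batch covariate on uncorrected counts of 42 mice or in batch 1 alone. Without 1 mouse at a time, an alternative added after the data were seen, the count with PFF at 21% O2 was between 1 and 2 and that under hypoxia in monomer mice stayed at 1. No proteasome gene was called in the other comparisons under any alternative. The median of the family kept within the spread between mice of a group (SD 0.045) in all alternatives except batch 2 alone for hypoxia in PFF mice (0.0064 against −0.0404). No called proteasome gene changed sign. Log2 fold changes over the alternatives other than leaving out a mouse were 0.11 to 0.60 for *Psmb8* and 0.26 to 0.83 for *Psmb9* with PFF at 21% O2, with adjusted p-values from 0.0301 to 0.798 and from 0.0132 to 0.516. They were 0.39 to 0.74 for *Psmb9* under hypoxia in monomer mice, with adjusted p-values from 0.009 to 0.119. *Uba6* lost its call on uncorrected counts of 42 mice, with or without a batch term, and without 1 mouse at a time in 7 of 42 refits. The cause of these changes was not tested. Groups share replicate numbers, and the paper describes a matched-pairs design. The labels do not say whether these numbers mark the pairs. Deviations of mice with the same number did not correlate alike (r from −0.38 to 0.39). Such correlations cannot decide whether mice were paired by traits such as weight or cage, so pairing stays uncertain. The replicate block changed the calls of *Psmb8* (adjusted p = 0.0522) and of the *Tap1* interaction (−0.54, adjusted p = 0.0318), and no other call of a gene named here. The proteasome genes with the fewest counts were *Psmb11* (a mean of 1.45 per mouse), *Psma8* (8.02), *Psme2b* (31.7), *Psmc3ip* (36.8) and *Psmb9* (46.8).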

Other observations

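The 6 mice that the authors left out were compared by value only, on TPM before correction. Of these, the 2 PFF mice at 11% O2 had a *Psmb9* of 4.75 TPM (replicate 2) and 7.26 TPM (replicate 5), and the second is above every one of the 42 kept mice on this scale, where the highest was 5.12 TPM. Replicate 5 also had the highest *Psmb8* of the 6, at 11.5 TPM, and *Tap1* at 8.58 TPM. The library of replicate 2 held 3134594 counts, the fewest of the 48 mice. The 3 monomer mice left out at 11% O2, all of batch 3, had a *Psmb9* of 4.65 TPM at most, where the 5 kept mice of that group and batch ranged from 2.25 to 4.12 TPM. The monomer mouse left out at 21% O2 had 3.65 TPM, where the 7 kept mice of its batch ranged from 2.05 to 3.27 TPM. All 6 mice left out were thus above the highest kept mouse of their group and batch in *Psmb9*. *Psmb10* did not share this pattern: in the same 3 monomer mice at 11% O2 it was between 84.0 and 87.1 TPM, inside the 79.9–94.1 TPM of the kept mice. The authors removed these mice after principal components analysis, and no test was made.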
